A study of Mus musculus with 24 samples.

Results

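The MHC class I antigen presentation pathway was followed through 10 genes, namely the heavy chains H2-K1 and H2-D1, their light chain B2m, the transactivator Nlrc5, the peptide transporter subunits Tap1 and Tap2, the loading factor Tapbp and the immunoproteasome subunits Psmb8, Psmb9 and Psmb10. They were taken by symbol from both expression files, which list 55487 genes each, and all 10 passed the filter on low values in both experiments. The 24 libraries come from Cas9-LPs, lymphoid progenitor (LP) cell lines from fetal liver that lack Ebf1, a factor required for B cell development, and that carry Cas9 from a Rosa26 knock-in. Every group shares this background and the cytokines SCF, Flt3L and IL-7, so all values describe an engineered line and not primary progenitors. In experiment 1, LPs on OP9 stroma and Phase 1 cells on OP9-DLL4 stroma, which presents the Notch ligand DLL4, carried sgControl, whose guides target luciferase, or sgCbfb. In experiment 2, LPs carried sgControl, sgCbfb, sgCTCF or sgMed12. Each of the 8 groups has 3 libraries of cells sorted for the hNGFR marker of the sgRNA virus and for CD45, 5 days after transduction. Each library is therefore a sorted population that received pooled guides, not a clone. The study's methods call the replicates of a group biologically independent, without saying whether separate cultures or separate transductions set them apart.

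Class I molecules display peptides from inside the cell to CD8 T cells. The immunoproteasome subunits Psmb8, Psmb9 and Psmb10 replace the constitutive catalytic subunits and change which peptides are cut, Tap1 and Tap2 pump peptides into the endoplasmic reticulum, and Tapbp (tapasin) bridges the transporter to the empty heavy chain, which is stable at the surface only with B2m. Interferons raise most of these genes, and Nlrc5 is the transactivator that binds class I promoters through a set of conserved boxes. Cbfb is the partner that all RUNX factors need to bind DNA well, CTCF is an insulator and loop factor, and Med12 belongs to the kinase module of Mediator.

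Of the 10 genes, 7 lie in the MHC region of chromosome 17 on GRCm38 (mm10). H2-K1 spans chr17:33996017-34000347 on the minus strand and H2-D1 chr17:35262730-35267499 on the plus strand. Tap1 (chr17:34187553-34197225, plus) and Psmb9 (chr17:34181987-34187764, minus) have starts that lie close together and run in opposite directions, with exons that overlap by 212 bases. Psmb8 (chr17:34197721-34201454) and Tap2 (chr17:34203527-34216321) come next along the plus strand. Tapbp lies at chr17:33915899-33929292. B2m is on chromosome 2 (chr2:122147686-122153083), and Psmb10 (chr8:105935735-105938444) and Nlrc5 (chr8:94434356-94527272) are on chromosome 8.

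RefSeq promoter windows on GRCm38.p6, from 250 bases before to 50 bases after the annotated start, were at hand for 8 of the 10 genes, all but Tap2 and Nlrc5. The gene spans above come from another annotation, and the RefSeq starts can lie inside them. For Tapbp the window begins at 33919228 and the span at 33915899. Of the 8 windows, 5 are printed. They are the windows of both heavy chains and their light chain, which share motifs, of Tap1, whose window overlaps that of Psmb9, and of Tapbp, which differed by stage and by sgRNA. Each reads 5′ to 3′ along the gene. Capitals mark matches on either strand to 4 motifs, the NF-kB consensus, the IRF core AANNGAAA, the TGACG core bound by CREB and ATF factors, and the RUNX core TGNGGT.
H2-K1: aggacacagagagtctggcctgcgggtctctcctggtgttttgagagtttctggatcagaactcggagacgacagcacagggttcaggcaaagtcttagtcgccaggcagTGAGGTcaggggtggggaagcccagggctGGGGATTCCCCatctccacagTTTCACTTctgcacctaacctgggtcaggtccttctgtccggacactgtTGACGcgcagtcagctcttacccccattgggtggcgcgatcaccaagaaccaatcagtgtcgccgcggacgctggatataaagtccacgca
H2-D1: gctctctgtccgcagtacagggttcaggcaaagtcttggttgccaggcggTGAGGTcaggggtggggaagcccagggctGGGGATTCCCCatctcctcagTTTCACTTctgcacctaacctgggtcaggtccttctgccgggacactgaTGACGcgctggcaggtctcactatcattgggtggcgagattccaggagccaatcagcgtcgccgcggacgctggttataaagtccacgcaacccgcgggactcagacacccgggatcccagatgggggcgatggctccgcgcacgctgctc
B2m: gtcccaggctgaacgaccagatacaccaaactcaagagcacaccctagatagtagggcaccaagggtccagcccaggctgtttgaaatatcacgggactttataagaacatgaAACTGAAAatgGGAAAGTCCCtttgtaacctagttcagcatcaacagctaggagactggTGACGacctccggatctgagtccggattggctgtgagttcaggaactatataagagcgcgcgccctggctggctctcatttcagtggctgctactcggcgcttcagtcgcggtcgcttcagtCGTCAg
Tap1: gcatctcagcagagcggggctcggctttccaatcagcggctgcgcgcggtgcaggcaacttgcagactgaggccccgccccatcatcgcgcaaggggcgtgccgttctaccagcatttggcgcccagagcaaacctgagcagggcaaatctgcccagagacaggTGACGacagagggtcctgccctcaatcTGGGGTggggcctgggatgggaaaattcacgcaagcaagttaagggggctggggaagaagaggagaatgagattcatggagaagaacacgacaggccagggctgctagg
Tapbp: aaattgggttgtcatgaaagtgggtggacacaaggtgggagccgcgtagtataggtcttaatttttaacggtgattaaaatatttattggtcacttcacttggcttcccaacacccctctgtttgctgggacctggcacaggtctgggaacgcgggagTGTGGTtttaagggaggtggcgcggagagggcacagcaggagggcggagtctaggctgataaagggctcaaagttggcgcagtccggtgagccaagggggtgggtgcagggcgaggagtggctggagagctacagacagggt
The windows are chr17:34000298-34000597 (minus strand) for H2-K1, chr17:35262844-35263143 for H2-D1, chr2:122147437-122147736 for B2m, chr17:34187306-34187605 for Tap1 and chr17:33919228-33919527 for Tapbp, the last 4 on the plus strand.

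H2-K1, H2-D1 and B2m held an NF-kB match, an IRF match and a TGACG match within the same window. In H2-K1 these began at positions -111, -90 and -41 from the start, and in H2-D1 at -171, -150 and -101, because its annotated start lies 60 bases further along. With the windows shifted by those 60 bases and no gaps allowed, 176 of 240 aligned bases (73.3%) were identical between the 2 heavy chain promoters. The CCAAT matches lie at -16 and 9 in H2-K1 and at -76 and -53 in H2-D1, so their spacing differs. Bases after them are out of register at this shift, and the share understates the likeness there. In B2m the IRF match (-137) came before the NF-kB match (-126), with TGACG at -78 and again at 45. The NF-kB consensus matched at neighbouring positions and on both strands in both heavy chains, and matches to different motifs did not overlap in these 5 windows. Across the 27025 promoters searched, the IRF core was found in 24.2%, the NF-kB consensus in 8.18% and TGACG in 21.0%, against 3, 3 and 5 of the 8 windows. Tap1 and Psmb9 share 275 bases of their windows, so the TGACG at -86 of Tap1 and at -144 of Psmb9 is 1 match, as is the RUNX core at -59 and -172. The RUNX core was found in 7 of the 8 windows, all but B2m, and in 45.6% of all promoters, and the CCAAT box in 6 of 8 and 37.9%. The CTCF consensus was found in 0 of the 8 windows and in 1.41% of all promoters, which says only that those letters were not in these 300 bases. These matches are descriptions of the sequence and not binding sites.

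**Figure D1:**
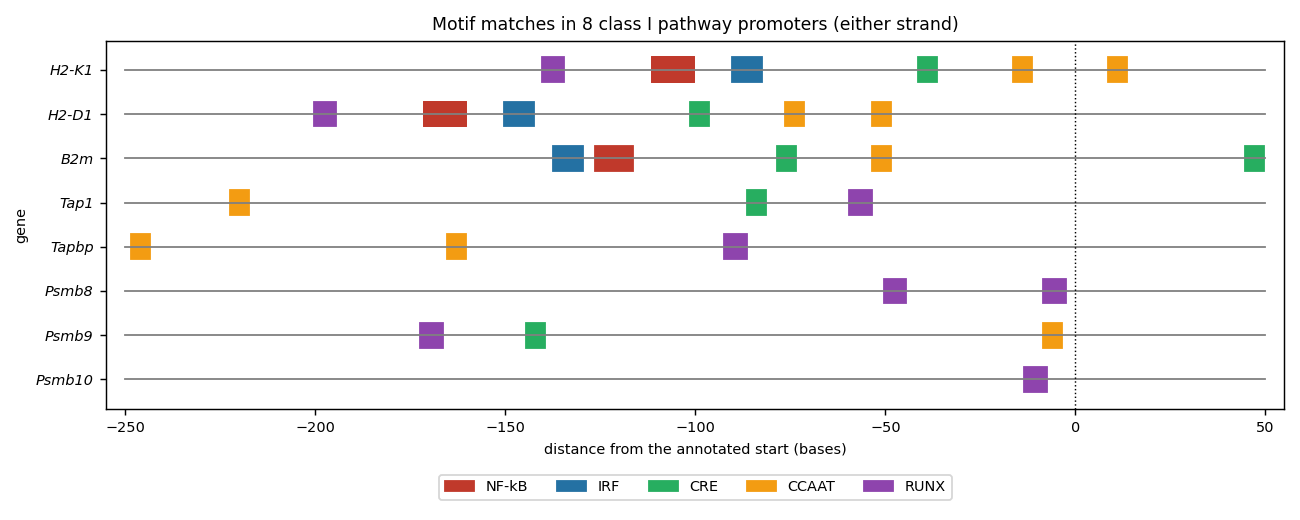
Position of each motif match along 8 promoters, with the distance from the annotated start in bases on the x axis, 1 gene per line and 1 colour per motif. NF-kB and IRF matches lie in H2-K1, H2-D1 and B2m, and the RUNX core lies in every promoter drawn except B2m.

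Values are CPM, a gene's reads scaled to the same total in every library. QuantSeq reads the 3′ end of each mRNA, so a CPM is not divided by length, and levels are compared between libraries and not between genes. Differences are limma log2 fold changes of CPM + 1, given with the standard error (SE), and a gene passed at a Benjamini-Hochberg adjusted p under 0.05 over all genes tested in its experiment (13239 in experiment 1 and 13177 in experiment 2). A stricter rule also asked for group means that differed by over 1 on the log2 scale, with the higher of them above 10 CPM. Shares of all genes are given for the adjusted limma p and the stricter rule only. Counts at an unadjusted p, by edgeR or by DESeq2 have no such share beside them and cannot be read as an excess among the 10 genes.

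Depth ranged from 1363263 to 1743319 reads per library in experiment 1 and from 3354483 to 4326782 in experiment 2, and the floor that 0 reads leave, taken as 3 reads, was 1.72 to 2.20 CPM and 0.693 to 0.894 CPM, for counting error only. Cbfb mRNA fell in sgCbfb LPs, from 75.8 to 92.7 CPM in sgControl to 35.7 to 45.8 in experiment 1 (log2 change -1.09, adjusted p = 0.00548) and from 109 to 124 CPM to 41.6 to 55.4 in experiment 2 (-1.23, adjusted p = 4.34e-06). In Phase 1 cells it was 44.1 to 63.5 CPM with sgCbfb and 44.7 to 81.3 with sgControl (-0.27, adjusted p = 0.591). Ctcf mRNA was 272 to 330 CPM with sgCTCF and 356 to 413 with sgControl (-0.36, adjusted p = 0.0210). Med12 was 3.20 to 9.61 CPM with sgMed12 and 4.38 to 6.59 with sgControl (0.30, adjusted p = 0.663). A 3′ read does not see a guide's cut that leaves the end of the mRNA in place, so the mRNA level does not check these deletions. The paper checked loss of the Cbfb, CTCF and Med12 proteins by immunoblot in Cas9-LPs, 3 days after the sgRNAs were introduced. The 8 lymphoid progenitor markers summed to 851 to 1785.2 CPM in each of the 24 libraries, and 6 early T markers that respond to Notch to 808 to 951 CPM in sgControl Phase 1 cells against 37.8 to 54.9 in sgControl LPs. Over all genes above a mean of 10 CPM, replicate 3 of the sgControl Phase 1 cells had a mean correlation of 0.888 with the rest of its group, against at least 0.920 in the other 11 libraries of experiment 1. It was the lowest of 12 libraries for 5 of the 10 genes and the highest for 2. In experiment 2 the sgMed12 libraries had the lowest such correlations, down to 0.9565 in replicate 2, and the other 9 libraries were at 0.9799 or above. Without sgMed12 replicate 2, B2m (0.51, adjusted p = 0.0188) passed as higher and Tap2 (-0.64, adjusted p = 0.00914) as lower in sgMed12 than in sgControl LPs. Replicate 1 of sgCbfb in experiment 2 was like its group over all genes (0.9799), but was the highest of 12 for 7 of the 10 class I genes, and replicate 1 of sgMed12 was the lowest for 4. These 2 were picked out by the class I values themselves, so values without them show only how far a result rests on 1 library.

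In experiment 2, sgCbfb LPs had higher H2-D1, B2m, Tap1 and Nlrc5 than sgControl LPs, with 4 of the 10 genes passing as higher and 0 as lower. Over all genes tested, 6.91% passed as higher and 5.57% as lower. In sorted bulk cells, fewer cells that express a gene and less RNA per cell cannot be told apart. The median of the 10 log2 changes was 0.43, against -0.01 over all genes. At an unadjusted p under 0.05, 6 were higher and 1 lower, edgeR passed 6 and 1, and DESeq2 5 and 0. Under the stricter rule 1 gene remained, Nlrc5, where 4.33% of all genes did. Without replicate 1 of sgCbfb, 1 gene passed as higher, B2m (log2 change 0.46 ± 0.13, adjusted p = 0.0204).

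The sgCTCF LPs had higher H2-K1 and H2-D1 and lower Tap2 than sgControl LPs. These 2 higher and 1 lower gene stand against 6.13% and 4.20% of all genes, with a median log2 change of 0.32 over the 10 genes and -0.02 over all. By the stricter rule 0 of the 10 genes remained, against 2.43% of all genes. The unadjusted p was under 0.05 for 7 higher genes and 1 lower, edgeR passed 2 and 1, and DESeq2 1 and 1, with no share of all genes at hand for these counts.

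In sgMed12 LPs only Psmb9 passed against sgControl, as lower, with 0 of the 10 genes higher by limma. All genes gave 2.53% higher and 4.70% lower, and 1.03% by the stricter rule, which left 0 of the 10. At an unadjusted p under 0.05 there were 1 higher and 2 lower genes, and edgeR and DESeq2 each passed 0 higher and 1 lower. The comparisons of sgCbfb, sgCTCF and sgMed12 with sgControl share the same 3 sgControl libraries.

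Set against each other, sgCTCF and sgCbfb LPs differed in 0 of the 10 genes by limma, in either direction, while 11.5% of all genes were higher and 10.9% lower with sgCTCF, and 6.87% passed the stricter rule. At an unadjusted p under 0.05 only B2m was lower, which edgeR also passed (1 lower) and DESeq2 did not (0). In sgMed12 against sgCbfb LPs, 5 of the 10 genes passed as lower (H2-K1, H2-D1, Tap1, Tapbp and Psmb9) and 0 as higher, also by edgeR and DESeq2 and at an unadjusted p. Of all genes 9.77% were lower and 7.03% higher, and by the stricter rule 1 of the 10 genes stood against 4.48%. Without replicate 1 of sgCbfb, 2 of these 5 passed, H2-K1 (-0.59 ± 0.15, adjusted p = 0.00878) and Psmb9 (-0.82 ± 0.18, adjusted p = 0.00232). In sgMed12 against sgCTCF LPs, 4 genes passed as lower (H2-K1, H2-D1, Tapbp and Psmb9) and 0 as higher, with 5 lower and 0 higher at an unadjusted p and 4 and 0 by both edgeR and DESeq2. The shares of all genes were 11.9% lower, 8.09% higher and 4.01% by the stricter rule, which 2 of the 10 genes met.

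In experiment 1, sgControl Phase 1 cells had higher Tapbp, Psmb8 and Psmb10 and lower Tap2 than sgControl LPs. These 3 higher genes and 1 lower gene stand against 3.26% and 3.23% of all genes, and 2 met the stricter rule, Tapbp and Tap2, against 3.39%. The Tap2 call was lost in 9 of 12 fits that left out 1 library and by DESeq2 (adjusted p = 0.330). Its size rests on replicate 3 of the sgControl Phase 1 cells, at 15.4 CPM, without which the log2 change was -0.62. In sgCbfb cells the same comparison of stages passed 0 of the 10 genes by limma, edgeR and DESeq2, with 1 higher and 1 lower at an unadjusted p, while 1.28% of all genes were higher, 0.959% lower and 1.19% past the stricter rule. Within Phase 1 cells, Tapbp and Psmb8 were lower with sgCbfb, 2 of the 10 genes against 2.60% of all genes. Higher genes were 0 of 10 by limma, edgeR and DESeq2, 1 at an unadjusted p, and 3.37% of all genes. By the stricter rule 0 of the 10 and 3.52% of all genes remained.

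In LPs of experiment 1, 0 of the 10 genes passed by limma between sgCbfb and sgControl, where 1.76% of all genes were higher, 1.09% lower and 1.69% past the stricter rule. At an unadjusted p under 0.05, 2 were lower, Tap2 and Psmb8, and edgeR passed Tap2 while DESeq2 passed 0. The interaction of stage with sgCbfb, the difference between the sgCbfb effects in Phase 1 cells and in LPs, passed for 1 gene, Tapbp, as lower, and for 0.657% of all genes as lower and 0.612% as higher. As higher, 0 of the 10 passed by limma, at an unadjusted p, by edgeR or by DESeq2.

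**Figure D2:**
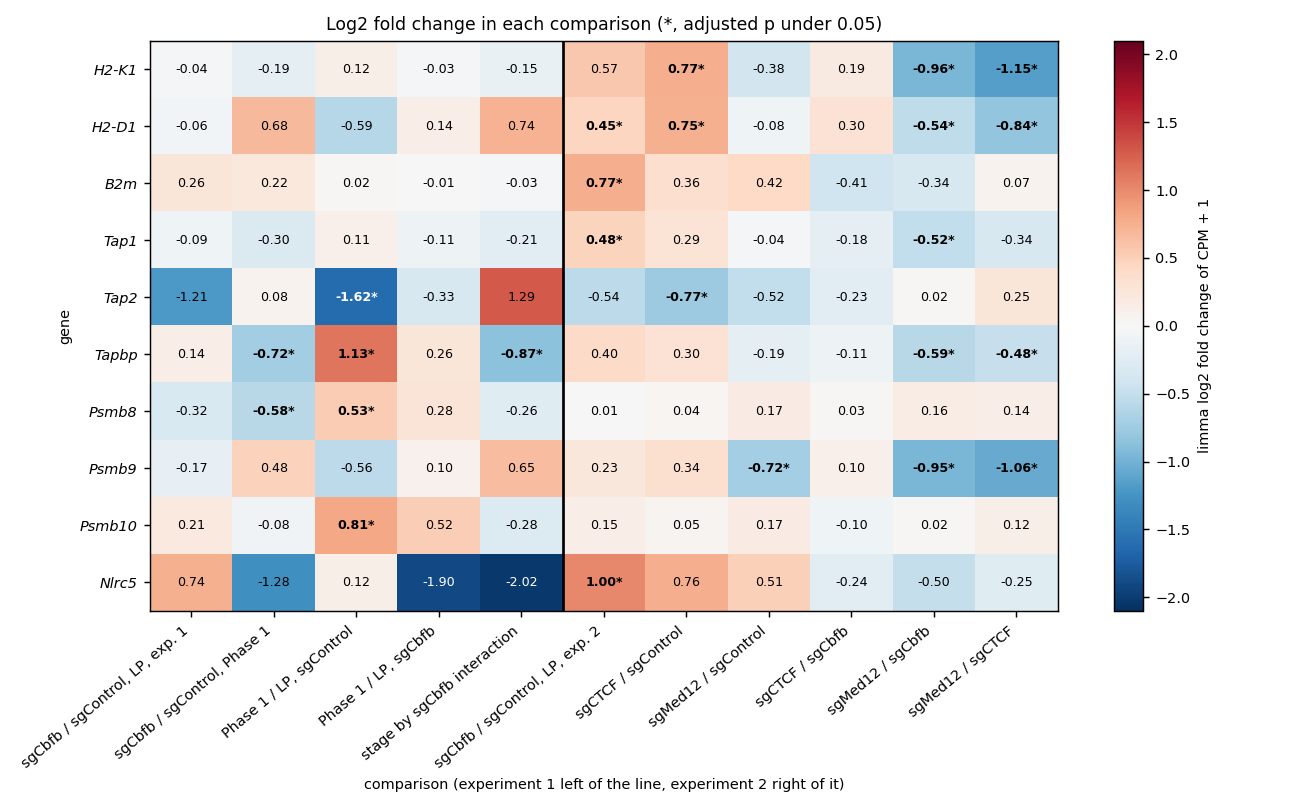
Limma log2 fold change of CPM + 1 for each of the 10 genes (rows) in each of the 11 comparisons (columns, experiment 1 left of the line), coloured from blue for lower to red for higher, with an asterisk where the adjusted p was under 0.05. H2-K1 and H2-D1 are red in the sgCbfb and sgCTCF columns of experiment 2 and blue in the last 2 columns, and Tap2 is blue in all 3 columns of experiment 2 that compare with sgControl.

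H2-K1 and H2-D1 encode the classical heavy chains. In experiment 2, H2-K1 read 124, 133 and 152 CPM in the sgControl libraries (replicates 1, 2 and 3), 340, 197 and 126 in sgCbfb, 210, 247 and 243 in sgCTCF and 107, 103 and 103 in sgMed12. All 3 sgCTCF libraries lay above all 3 sgControl libraries and all 3 sgMed12 libraries below them, while sgCbfb overlapped sgControl through its replicate 3. The rise with sgCTCF was 0.77 ± 0.20 (adjusted p = 0.0114). H2-K1 did not pass there without sgCTCF replicate 2 (0.72, adjusted p = 0.0635) or sgControl replicate 1 (0.70, adjusted p = 0.0638), with no filter (adjusted p = 0.0652) or by DESeq2 (adjusted p = 0.0733). With sgCbfb the difference was 0.57 ± 0.20 and did not pass (adjusted p = 0.0569). With sgMed12 it was -0.38 ± 0.20 (adjusted p = 0.243). H2-K1 fell by 1.15 ± 0.20 between sgCTCF and sgMed12 LPs (adjusted p = 0.000192), the ratio of the means being 0.447.

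H2-D1 followed H2-K1 closely in experiment 2, with a correlation of 0.95 across the 12 libraries. Its levels were 219, 241 and 259 CPM in sgControl, 457, 322 and 239 in sgCbfb, 382, 394 and 435 in sgCTCF and 200, 239 and 240 in sgMed12. The sgCTCF libraries again did not overlap sgControl, with a change of 0.75 ± 0.15 (adjusted p = 0.00124), and H2-D1 passed there in all 12 fits that left out 1 library. With sgCbfb the change was 0.45 ± 0.15 (adjusted p = 0.0445), a call that was lost in 9 of 12 such fits, with a pseudocount of 0.1, without the filter and with the replicate number as a block (adjusted p = 0.0602). Its size moved most without sgCbfb replicate 1, to 0.22 ± 0.13 (adjusted p = 0.364). Between sgCTCF and sgCbfb LPs, H2-K1 differed by 0.19 ± 0.20 and H2-D1 by 0.30 ± 0.15, and neither passed.

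In experiment 1 the heavy chains did not separate the groups. H2-K1 was 122, 128 and 119 CPM in sgControl LPs, 109, 131 and 120 in sgCbfb LPs, 174, 129 and 107 in sgControl Phase 1 cells and 122, 116 and 113 in sgCbfb Phase 1 cells, and all 4 groups overlapped. H2-D1 was 204, 231 and 233 CPM in sgControl LPs and 183, 251 and 211 in sgCbfb LPs. In Phase 1 cells it was 205, 227 and 68.2 with sgControl and 261, 210 and 239 with sgCbfb. The value of 68.2 CPM belongs to replicate 3 and was the lowest of the experiment, and neither heavy chain passed in any of the 5 comparisons. The sgCbfb difference of H2-D1 in Phase 1 cells was 0.68 ± 0.28 with all libraries and 0.13 ± 0.14 without that replicate.

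B2m, the light chain, rose most clearly in sgCbfb LPs of experiment 2. Its levels were 1050.5, 1164.5 and 975 CPM in sgControl, 2753 (replicate 1), 1692.3 and 1265.7 in sgCbfb, 1337.4, 1347.4 and 1387.6 in sgCTCF and 1400.2, 1271.9 and 1623.4 in sgMed12. Each of the 9 libraries with a targeted gene lay above each sgControl library, yet only sgCbfb passed (0.77 ± 0.17, adjusted p = 0.00193). The differences were 0.36 ± 0.17 for sgCTCF (adjusted p = 0.202) and 0.42 ± 0.17 for sgMed12 (adjusted p = 0.118). Without sgCbfb replicate 1 the SE of the sgMed12 value was 0.12 and it passed (adjusted p = 0.0316).

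B2m in LPs of experiment 1 was 1057.7, 1191.3 and 1189.5 CPM with sgControl and 1391.6, 1356 and 1354.4 with sgCbfb. These groups did not overlap, but the difference of 0.26 ± 0.18 did not pass (adjusted p = 0.694). In Phase 1 cells B2m was 1396.2, 1590.9 and 708 CPM with sgControl and 1233.2, 1418.8 and 1429.7 with sgCbfb. Without replicate 3, at 708 CPM, B2m passed as higher in sgControl Phase 1 cells than in sgControl LPs (0.38 ± 0.10, adjusted p = 0.00658), and with it the value was 0.02 ± 0.18.

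Nlrc5, the transactivator of class I genes, had few reads. In experiment 2 it was 5.80, 4.72 and 6.09 CPM in sgControl, 14.9, 15.8 and 7.30 in sgCbfb, 6.44, 13.1 and 11.8 in sgCTCF and 7.63, 7.84 and 9.37 in sgMed12. All 9 libraries with a targeted gene were above the 3 sgControl libraries, and the change passed for sgCbfb (1.0 ± 0.30, adjusted p = 0.0265) and not for sgCTCF (0.76 ± 0.30, adjusted p = 0.117) or sgMed12 (0.51 ± 0.30, adjusted p = 0.322). The sgCbfb value kept its direction but did not pass without replicate 1 (0.86 ± 0.34, adjusted p = 0.121), nor in 4 other fits that left out 1 library.

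In experiment 1, Nlrc5 was 6.49, 4.95 and 3.85 CPM in sgControl LPs, 7.05, 9.75 and 10.7 in sgCbfb LPs, 4.94, 9.03 and 3.67 in sgControl Phase 1 cells and 0.648, 2.51 and 2.36 in sgCbfb Phase 1 cells. The lowest of these is 1 read. The sgCbfb libraries were above sgControl in LPs and below it in Phase 1 cells, with differences of 0.74 ± 0.51 (adjusted p = 0.678) and -1.28 ± 0.51 (adjusted p = 0.177). The interaction was the largest in size of the 10 genes, at -2.02 ± 0.73, and did not pass (adjusted p = 0.271).

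Tap1 and Tap2 form the peptide transporter. In experiment 2, Tap1 was 90.2, 89.5 and 90.3 CPM in sgControl, 168, 117 and 101 in sgCbfb, 101, 109 and 122 in sgCTCF and 81.1, 95.0 and 86.0 in sgMed12. Both sgCbfb and sgCTCF lay wholly above sgControl, and the change passed for sgCbfb (0.48 ± 0.14, adjusted p = 0.0244) and not for sgCTCF (0.29 ± 0.14, adjusted p = 0.215). Without sgCbfb replicate 1, the sgCbfb value was 0.27 ± 0.13 (adjusted p = 0.237), and without any 1 sgControl library it was 0.47 to 0.48 (adjusted p = 0.0670 to 0.0718). In experiment 1 Tap1 was between 57.1 and 101 CPM in all 12 libraries and passed in 0 of the 5 comparisons.

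Tap2 in experiment 2 was 314, 182 and 293 CPM in sgControl, 150, 165 and 219 in sgCbfb, 120, 170 and 164 in sgCTCF and 133, 210 and 202 in sgMed12. The group means of all 3 knockouts were below that of sgControl, and the fall passed for sgCTCF, by 0.77 ± 0.18 on the log2 scale (adjusted p = 0.00700). For sgCbfb the difference was -0.54 ± 0.18 (adjusted p = 0.0552) and for sgMed12 -0.52 ± 0.18 (adjusted p = 0.0821). The sgControl group itself ranged from 182 to 314 CPM, and the sgCTCF call was lost without its replicate 1 or 3 or sgCTCF replicate 1. Without sgControl replicate 2, the lowest of that group, Tap2 passed as lower in all 3, at -0.79 ± 0.18 for sgCbfb, -1.01 ± 0.18 for sgCTCF and -0.77 ± 0.18 for sgMed12 (adjusted p = 0.00403, 0.000653 and 0.0286).

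In experiment 1, Tap2 was 253, 214 and 147 CPM in sgControl LPs, 84.6, 110 and 68.5 in sgCbfb LPs, 119, 140 and 15.4 in sgControl Phase 1 cells and 56.4, 72.3 and 77.2 in sgCbfb Phase 1 cells. The sgControl LPs did not overlap any other group. Against them Tap2 was lower in sgControl Phase 1 cells (-1.62 ± 0.48, adjusted p = 0.0455) and, with a difference that did not pass, in sgCbfb LPs (-1.21 ± 0.48, adjusted p = 0.268). Replicate 3 of the sgControl Phase 1 cells, at 15.4 CPM (21 reads), lay far below its group. Without it the stage difference was -0.62 ± 0.19 (adjusted p = 0.0325), and sgCbfb lowered Tap2 in LPs (-1.21 ± 0.17, adjusted p = 5.36e-07) and in Phase 1 cells (-0.92 ± 0.19, adjusted p = 0.000566). The stage call with all libraries was lost when any 1 of 9 other libraries was left out, and DESeq2 gave -1.11 (adjusted p = 0.330). With all libraries the sgCbfb value in Phase 1 cells was 0.08 ± 0.48 on the log2 scale, while the group means, 68.6 CPM with sgCbfb and 91.6 with sgControl, differed in the other direction. Across the 12 libraries of experiment 1, Tap2 correlated with Psmb9 at 0.81, H2-D1 at 0.71, B2m at 0.50, H2-K1 at 0.43 and Nlrc5 at 0.34, and at -0.60 with Psmb10 and -0.54 with Tapbp. Replicate 3 of the sgControl Phase 1 cells was the lowest library for Tap2, Psmb9, H2-D1, B2m and H2-K1. The positive values for these genes may rest on that 1 library, and correlations without it were not computed. Across the 12 libraries of experiment 2 the correlations of Tap2 were negative with 8 of the other 9 genes, the lowest at -0.55 with B2m, and 0.08 with Psmb9.

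Tapbp, or tapasin, differed by stage and by sgRNA in experiment 1. Its levels were 110, 84.2 and 112 CPM in sgControl LPs, 103, 126 and 108 in sgCbfb LPs, 206, 212 and 251 in sgControl Phase 1 cells and 145, 121 and 138 in sgCbfb Phase 1 cells. The sgControl Phase 1 cells lay above every other library of the experiment. Tapbp rose by 1.13 ± 0.15 from LPs to Phase 1 cells with sgControl (adjusted p = 2.95e-05, ratio of the means 2.18), while the stage difference with sgCbfb was 0.26 ± 0.15 (adjusted p = 0.551). Within Phase 1 cells it fell by 0.72 ± 0.15 with sgCbfb (adjusted p = 0.00429), and in LPs the difference was 0.14 ± 0.15 (adjusted p = 0.825). The interaction was -0.87 ± 0.22 (adjusted p = 0.0495), and over the other settings its adjusted p ranged from 0.0151 to 0.167. It did not pass in 10 of 12 fits that left out 1 library, and the fit without sgControl Phase 1 replicate 3 gave -0.78 ± 0.21 (adjusted p = 0.0364).

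In experiment 2, Tapbp was 126, 129 and 122 CPM in sgControl, 214, 168 and 127 in sgCbfb, 159, 153 and 151 in sgCTCF and 92.4, 128 and 113 in sgMed12. The sgCTCF libraries were all above sgControl, yet neither their difference (0.30 ± 0.14, adjusted p = 0.213) nor that of sgCbfb (0.40 ± 0.14, adjusted p = 0.0652) passed. Tapbp passed as lower in sgMed12 than in sgCTCF LPs (-0.48 ± 0.14, adjusted p = 0.0178, lost in 3 of 12 fits that left out 1 library) and in sgMed12 than in sgCbfb LPs (-0.59 ± 0.14, adjusted p = 0.00441).

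**Figure D3:**
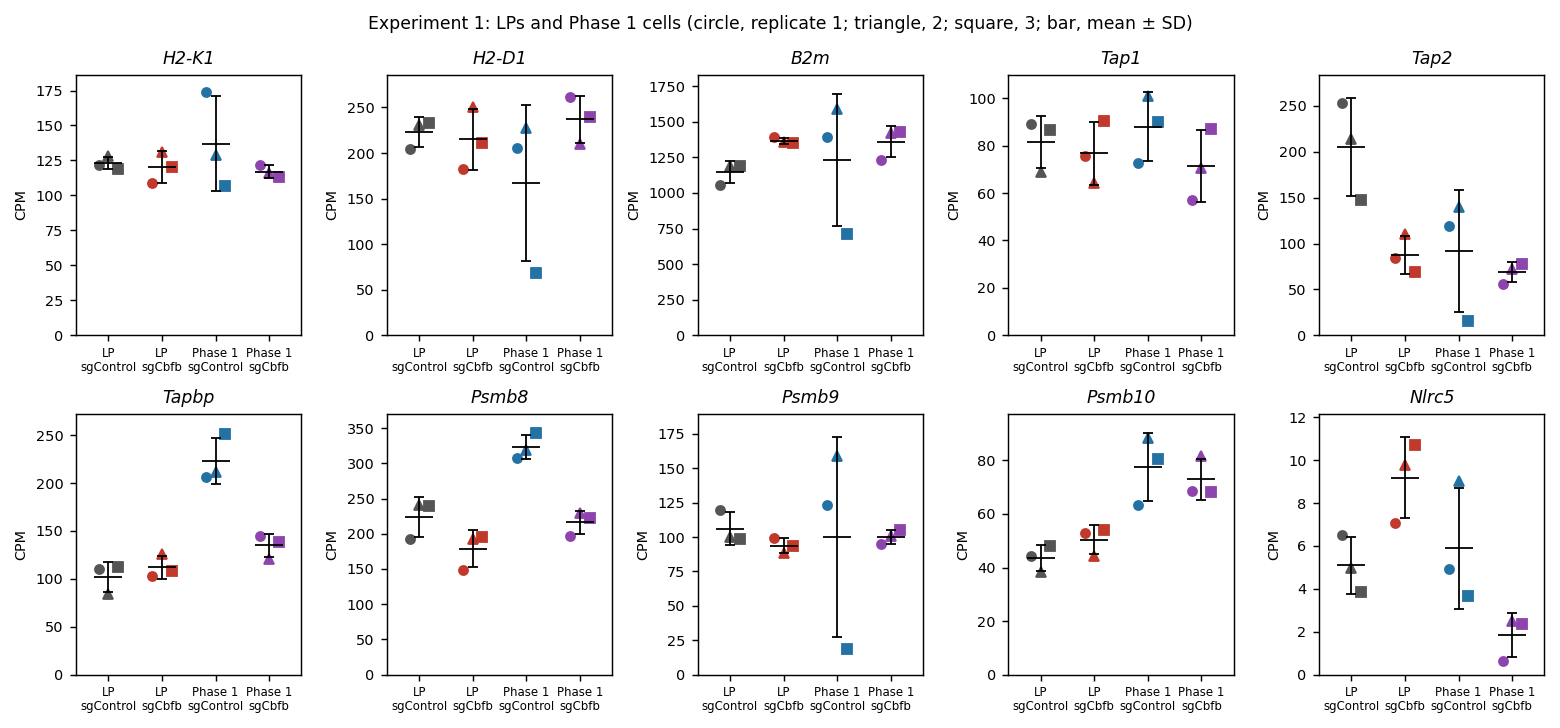
CPM of the 10 genes in the 12 libraries of experiment 1 (circles, triangles and squares for replicates 1, 2 and 3; bars, mean ± SD; y axes from 0). Tapbp and Psmb8 are highest in sgControl Phase 1 cells, and replicate 3 of that group is at 68.2 CPM for H2-D1, 708 for B2m, 15.4 for Tap2 and 18.3 for Psmb9.

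Psmb8, Psmb9 and Psmb10 are the inducible catalytic subunits of the immunoproteasome. In experiment 1, Psmb8 was 192, 241 and 239 CPM in sgControl LPs, 149, 193 and 196 in sgCbfb LPs, 308, 319 and 343 in sgControl Phase 1 cells and 197, 229 and 223 in sgCbfb Phase 1 cells. As for Tapbp, the sgControl Phase 1 cells were above all other libraries. The stage change with sgControl was 0.53 ± 0.14 (adjusted p = 0.0183), and sgCbfb lowered Psmb8 in Phase 1 cells by 0.58 ± 0.14 (adjusted p = 0.0104). These calls were lost without sgControl LP replicate 1 (0.43, adjusted p = 0.119) and without sgCbfb Phase 1 replicate 1 (-0.51, adjusted p = 0.0711), respectively. The Psmb8 interaction was -0.26 ± 0.19 and did not pass (adjusted p = 0.709). In experiment 2, Psmb8 ranged only from 175 to 243 CPM and passed in 0 of the 6 comparisons.

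Psmb10 also rose with stage in sgControl cells, from 44.3, 38.4 and 48.2 CPM in LPs to 63.5, 88.4 and 80.7 in Phase 1 cells (0.81 ± 0.19, adjusted p = 0.0111). Without replicate 2 of the sgControl LPs the Psmb10 value was 0.72 (adjusted p = 0.0662), and without replicate 2 of the sgControl Phase 1 cells 0.71 (adjusted p = 0.0528). With sgCbfb it was 52.9, 44.2 and 54.2 CPM in LPs and 68.7, 81.7 and 68.4 in Phase 1 cells. These groups did not overlap either, but the difference of 0.52 ± 0.19 did not pass (adjusted p = 0.214). In experiment 2, Psmb10 lay between 41.9 and 62.0 CPM in all 12 libraries and passed in 0 of the 6 comparisons.

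Psmb9 was the gene that fell with sgMed12. In experiment 2 it was 145, 135 and 149 CPM in sgControl, 202, 150 and 157 in sgCbfb, 163, 199 and 182 in sgCTCF and 58.5, 110 and 99.9 in sgMed12. All 3 sgMed12 libraries were below every other library of the experiment, with a change of -0.72 ± 0.16 against sgControl (adjusted p = 0.0111), -0.95 ± 0.16 against sgCbfb (adjusted p = 0.000124) and -1.06 ± 0.16 against sgCTCF (adjusted p = 6.12e-05). Without sgMed12 replicate 1, at 58.5 CPM, the difference from sgControl was -0.44 ± 0.13 (adjusted p = 0.0600), and the other 2 values still passed. Tap1, which shares the promoter window of Psmb9, differed by -0.04 ± 0.14 between sgMed12 and sgControl LPs.

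In experiment 1, Psmb9 was 120, 100 and 98.3 CPM in sgControl LPs, 99.5, 88.3 and 93.5 in sgCbfb LPs, 123, 159 and 18.3 in sgControl Phase 1 cells and 94.7, 101 and 105 in sgCbfb Phase 1 cells. The 18.3 CPM of replicate 3 lay far below the other 11 libraries, the lowest of which was at 88.3 CPM. Psmb9 passed in 0 of the 5 comparisons. Its correlation with H2-D1 across the 12 libraries was 0.90, and that library was the lowest for both.

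**Figure D4:**
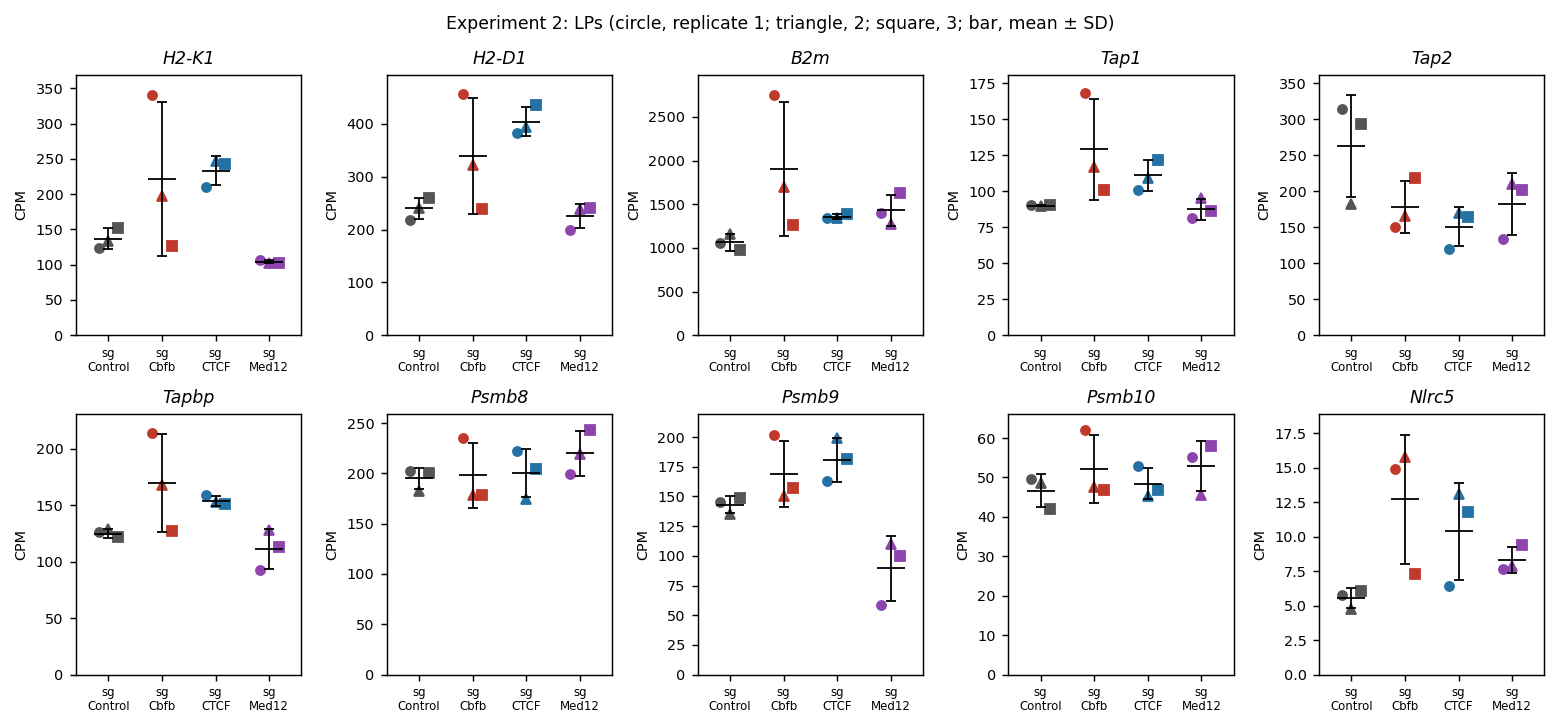
CPM of the 10 genes in the 12 LP libraries of experiment 2 (circles, triangles and squares for replicates 1, 2 and 3; bars, mean ± SD; y axes from 0). Replicate 1 of sgCbfb is the highest library for H2-K1 (340), H2-D1 (457), B2m (2753), Tap1 (168) and Tapbp (214), the sgCTCF libraries sit above sgControl for both heavy chains, and the sgMed12 libraries are the lowest for Psmb9.

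The constitutive subunits that Psmb8, Psmb9 and Psmb10 replace, Psmb5, Psmb6 and Psmb7, passed in 0 of the 11 comparisons by limma, edgeR and DESeq2, with 3 higher and 4 lower results at an unadjusted p under 0.05. Of the 4 proteasome activators, Psme1, part of the interferon-inducible 11S cap, rose with stage in sgControl cells (0.62 ± 0.14, adjusted p = 0.00599), from 194, 248 and 227 CPM to 304, 328 and 395. The remaining results of that list were 1 lower and 2 higher, all for Psme4. Of 8 genes for peptide loading and trimming, Calr, the chaperone calreticulin, fell with sgCbfb in LPs of experiment 1 (-0.62 ± 0.12, adjusted p = 0.00274), in Phase 1 cells (-0.61 ± 0.12, adjusted p = 0.00211) and in LPs of experiment 2 (-0.63 ± 0.12, adjusted p = 0.000510), and it rose with stage in sgControl cells (0.47 ± 0.12, adjusted p = 0.0169). Those 4 comparisons gave 2, 1, 2 and 0 lower genes of the list and 0, 0, 0 and 1 higher. In the same order, 1.09%, 2.60%, 5.57% and 3.23% of all genes were lower and 1.76%, 3.37%, 6.91% and 3.26% higher. With stage in sgCbfb cells 4 of the 8 were higher and 0 lower, also by edgeR and DESeq2, namely Calr (0.49 ± 0.12, adjusted p = 0.0280), Hspa5, Pdia3 and Tapbpl. By limma 1.28% of all genes were higher and 0.959% lower there. Tapbpl, a relative of tapasin, was 28.2, 17.8 and 13.6 CPM in sgCbfb LPs and 53.8, 47.8 and 48.9 in sgCbfb Phase 1 cells (1.35 ± 0.29, adjusted p = 0.00982), and 21.2, 19.2 and 16.1 and then 21.2, 27.1 and 31.5 with sgControl. The interaction of stage with sgCbfb passed for 0 of the 8 by limma, edgeR and DESeq2, with 3 higher and 0 lower at an unadjusted p under 0.05. With sgCTCF 1 of the 8 was higher, Uggt1, and with sgMed12 0 passed by limma, edgeR or DESeq2, with 0 higher and 2 lower at an unadjusted p under 0.05. Of all genes 6.13% were higher and 4.20% lower with sgCTCF, 2.53% and 4.70% with sgMed12, and 0.612% and 0.657% in the interaction.

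Of 20 other class I heavy chain genes listed, mostly of the H2-Q, H2-T and H2-M families, 18 were matched by symbol in the files, and 8 were tested in experiment 1 and 7 in experiment 2. H2-T24 read 0, 0 and 0.487 CPM in sgControl LPs of experiment 2 and 5.96, 4.02 and 1.01 in sgCbfb LPs. It passed as higher (1.85 ± 0.42, adjusted p = 0.00268, a size that depends on the 1 CPM added), 1 of 7 tested, and 0 of the tested genes passed against sgControl in the other sgRNA comparisons. Over all genes, 6.91% passed as higher with sgCbfb in LPs of experiment 2. H2-T22 was 25.3, 24.9 and 15.9 CPM in sgCbfb LPs and 11.6, 13.3 and 14.1 in sgControl (0.69 ± 0.24, adjusted p = 0.0590). Summed over the 11 comparisons, edgeR passed 2 higher and 5 lower, DESeq2 2 and 4, and the unadjusted p 4 and 8.

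Class II molecules present peptides taken up from outside the cell. Of 10 class II genes tested, 6 were higher in sgControl Phase 1 cells than in sgControl LPs and 0 lower, with a median log2 change of 1.87, and with sgCbfb in Phase 1 cells 4 were lower and 1 higher. In experiment 2, 7 of 9 were higher with sgCTCF and 0 lower, 3 were higher and 1 lower with sgCbfb, and 0 passed with sgMed12 by limma, edgeR or DESeq2 (0 higher and 1 lower at an unadjusted p). The counts of 0 lower genes were also 0 by the other tools and at an unadjusted p. Their summed levels with sgCTCF were 117 to 129 CPM against 61.2 to 95.1 in sgControl. Of all genes 3.26% were higher and 3.23% lower with stage in sgControl cells, and 3.37% and 2.60% with sgCbfb in Phase 1 cells. In experiment 2 the shares were 6.91% and 5.57% with sgCbfb, and 2.53% and 4.70% with sgMed12. With sgCTCF 6.13% of all genes were higher and 4.20% lower, and edgeR passed 5 of the class II genes as higher and DESeq2 6. Only Cd74 and H2-Oa also met the stricter rule there. H2-Ab1, H2-Eb1, H2-Aa, H2-DMb1 and H2-DMb2 averaged 0.243 to 1.84 CPM in sgControl, near the floor, and 2.49 to 5.97 with sgCTCF.

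Factors that act on class I promoters were followed as a list of 16. With sgCbfb in LPs of experiment 2, 3 were higher and 0 lower, among them Irf9 and Stat2, which act in the response to interferons, and edgeR, DESeq2 and an unadjusted p under 0.05 gave the same counts. By limma 6.91% of all genes were higher and 5.57% lower there. Irf1, an interferon-induced factor for IRF sites, was 71.2, 72.9 and 63.3 CPM in sgControl and 80.5, 93.0 and 70.5 in sgCbfb (0.23 ± 0.13, adjusted p = 0.299). In sgControl Phase 1 cells Irf1 was 181 and 146 CPM in replicates 1 and 2 and 35.2 in replicate 3, the library that was also low for H2-D1, B2m, Tap2 and Psmb9.

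Interferon-stimulated genes also differed between the groups of experiment 2. Of 22 tested, 20 were higher and 0 lower with sgCbfb, 4 higher and 0 lower with sgCTCF, and 1 higher and 1 lower with sgMed12. Of all genes, 6.91% were higher and 5.57% lower with sgCbfb, 6.13% and 4.20% with sgCTCF, and 2.53% and 4.70% with sgMed12. The sgMed12 counts cannot be read as an excess. In the first 2 of these comparisons lower genes were also 0 by edgeR, DESeq2 and an unadjusted p. The summed level of the 23 genes listed was 238, 256 and 242 CPM in sgControl, 1424.7, 925 and 629 in sgCbfb, 334, 388 and 333 in sgCTCF and 248, 295 and 289 in sgMed12. Within sgCbfb, replicate 1 had the highest and replicate 3 the lowest sum, the same order as for H2-K1, H2-D1, B2m, Tap1, Tapbp and Psmb10 (62.0, 47.5 and 46.9 CPM). The remaining class I genes did not share it. Tap2 ran the other way (150, 165 and 219), and Nlrc5 was highest in replicate 2 (14.9, 15.8 and 7.30). Psmb9 was lowest in replicate 2 (202, 150 and 157), and Psmb8 was at 179 in both replicates 2 and 3. Replicate 1 was the highest of 12 libraries for 20 of the 23 genes. With sgCTCF the mean was 233 CPM for H2-K1 and 404 for H2-D1, against 221 and 339 with sgCbfb, while the interferon sum of each sgCTCF library was below that of each sgCbfb library. Isg15 was 118, 34.6 and 23.4 CPM in sgCbfb and at most 3.41 CPM in the 9 other libraries of experiment 2. The part of these genes in the class I values was not tested.

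In experiment 1, the same list was 303, 341 and 290 CPM in sgControl LPs, 467, 403 and 498 in sgCbfb LPs, 596, 619 and 319 in sgControl Phase 1 cells and 421, 440 and 473 in sgCbfb Phase 1 cells. Of 19 tested, 3 were higher with sgCbfb in LPs and 2 higher with stage in sgControl cells, with 0 lower in both, also by edgeR, DESeq2 and an unadjusted p. In Phase 1 cells 0 passed between sgCbfb and sgControl by any of these. The shares of all genes, higher and lower, were 1.76% and 1.09% with sgCbfb in LPs. With stage in sgControl cells they were 3.26% and 3.23%, and with sgCbfb in Phase 1 cells 3.37% and 2.60%. Replicate 3 of the sgControl Phase 1 cells had the lowest sum of its group, as it did for H2-D1, B2m, Tap2 and Psmb9, while its Tapbp (251 CPM) and Psmb8 (343 CPM) were the highest of the experiment.

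**Figure D5:**
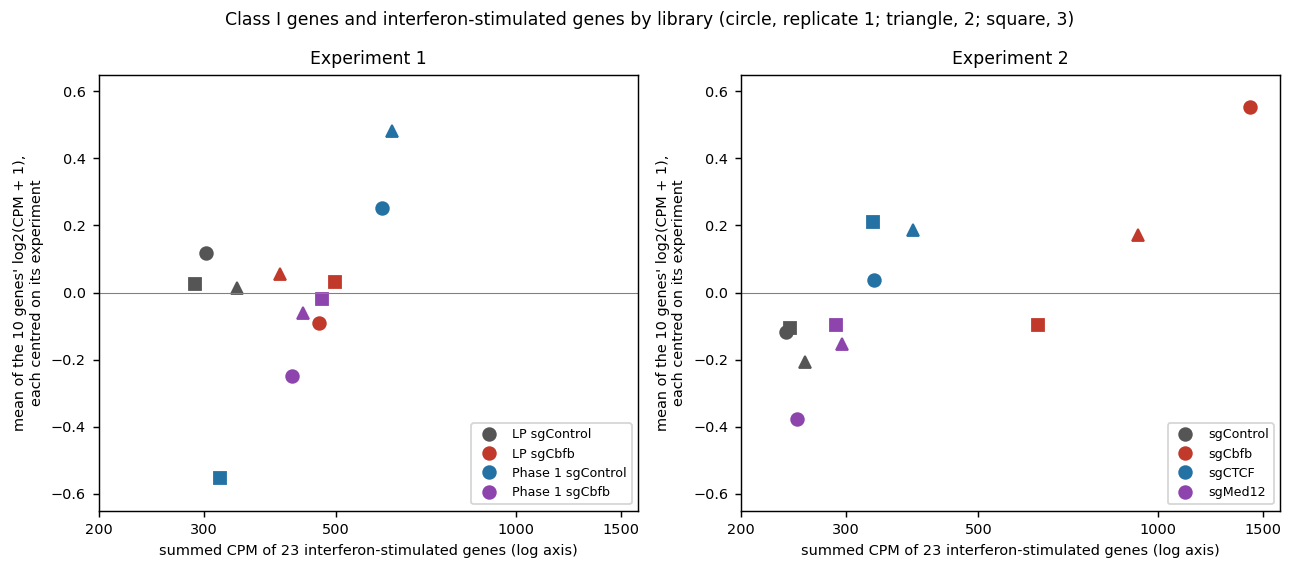
Mean of the 10 class I genes' log2(CPM + 1), each centred on its mean over the 12 libraries (y axis), against the summed CPM of 23 interferon-stimulated genes (x axis, log scale), 1 point per library. In experiment 2 replicate 1 of sgCbfb is highest on both axes, at 0.55 and 1424.7 CPM, and sgCTCF lies between 0.04 and 0.21 on the y axis with 333 to 388 CPM. In experiment 1 replicate 3 of the sgControl Phase 1 cells stands apart at -0.55.

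Some markers of other blood cells moved with the groups as well, mostly through a few genes of each list. Of the 6 monocyte and macrophage markers, Mrc1, the mannose receptor, was 4.22, 8.86 and 5.6 CPM in sgControl LPs of experiment 2 and 508, 460 and 447 in sgCbfb LPs. It carried most of the list's sum there, which was 58.4 to 75.0 CPM in sgControl and 501 to 568 in sgCbfb. Lyz2 also passed as higher, at a mean of 3.85 CPM, Adgre1 was 61.9 CPM in mean against 58.0, and Cd14 was at 0 in both groups. In experiment 1 the list summed to 62.3 to 73.2 CPM in sgControl LPs, 318 to 328 in sgCbfb LPs, 19.8 to 25.8 in sgControl Phase 1 cells and 298 to 342 in sgCbfb Phase 1 cells, and Mrc1 was at most 7.08 CPM with sgControl and at least 201 with sgCbfb. Adgre1 averaged 100 CPM in sgCbfb LPs and 99.3 in sgCbfb Phase 1 cells of experiment 1. Its interaction of stage with sgCbfb passed as higher by limma (1.77 ± 0.29, adjusted p = 0.00183). Csf1r averaged 4.57 CPM and Fcgr1 4.26 in sgCbfb Phase 1 cells.

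In experiment 1 the 5 conventional dendritic markers summed to 1.28 to 9.44 CPM in sgControl LPs, 0 in sgCbfb LPs, 40.3 to 50.3 in sgControl Phase 1 cells and 5.30 to 6.91 in sgCbfb Phase 1 cells. Nearly all of it was Itgax (CD11c), while Xcr1, Clec9a and Cd209a were at 0 in every group. The 4 NK and ILC markers summed to 30.3 to 38.4, 36.4 to 39.5, 131 to 152 and 39.5 to 46.7 CPM in the same groups. Nearly all of that sum was Gata3, a factor that early T cells also use, and Ncr1 was at 0 in all 4 groups. Both sums were highest in sgControl Phase 1 cells, as Tapbp, Psmb8 and the class II genes were. In experiment 2 the conventional dendritic markers summed to between 0.298 and 10.9 CPM in all 12 libraries. The 4 plasmacytoid dendritic markers summed there to 601 to 806 CPM in sgControl, 170 to 444 in sgCbfb, 829 to 1142.3 in sgCTCF and 706 to 1370.2 in sgMed12. In experiment 1 they summed to 1190.1 to 1206.8, 279 to 350, 228 to 359 and 170 to 175 in the 4 groups as ordered above. These markers did not move together. With sgCTCF against sgControl, mean Ccr9 was 788 against 534 CPM and Bst2 119 against 100. Irf8 was lower there (44.1 against 80.8 CPM, adjusted p = 0.00639 by limma), and Siglech was 1.62 against 2.06. In sgCbfb LPs of experiment 2, Bst2 averaged 189 CPM and Ccr9 26.9. With stage in sgCbfb cells, mean Ccr9 fell from 235 to 58.0 CPM while Irf8 rose from 25.7 to 64.6. OP9 stroma markers summed to 0 to 35.0 CPM, with Col3a1, Dcn and Postn at 0 in every group. The part of these markers in the class I differences was not tested.

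The genes whose pattern was most like the mean of the 10 were sought among 7977 genes with a mean over 10 CPM in both experiments, by the lower of the 2 correlations across the 12 libraries of each. They were Tor1aip2 (0.78 in experiment 1 and 0.73 in experiment 2), Rnf114 (0.73 and 0.75), Rnpep (0.72 and 0.74), Tor1aip1 (0.77 and 0.70), Helz2 (0.70 and 0.70), Slc45a4 (0.79 and 0.69), Usp25 (0.67 and 0.77) and Trafd1 (0.74 and 0.67). Trafd1, for example, was 30.1, 22.1 and 22.9 CPM in sgControl, 92.7, 65.4 and 42.1 in sgCbfb, 31.1, 25.1 and 29.8 in sgCTCF and 30.5, 32.8 and 25.5 in sgMed12. In experiment 1 the lowest library of each of these 8 genes was replicate 3 of the sgControl Phase 1 cells, which was also the lowest for 5 of the 10 class I genes. The correlations are descriptions over libraries that share these features.

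Reads of near-identical genes could have been split. Of the 75-base words in the last 500 bases of the H2-K1 transcripts, 1.8% also occur in other genes, among them H2-D1, H2-Q6 and H2-Q7, and of Tapbp 1.4% occur in Zbtb22. For the other 8 genes the share was 0. Exons of Tapbp overlap the antisense gene Gm19412 by 904 bases and exons of Tap2 overlap Gm15821 by 533 bases. Exons of Tap1 and Psmb9 overlap each other by 212 bases on opposite strands. Also on the opposite strand, Gm20496 overlaps Psmb8 by 498 bases and Tap2 by 165, and 9330175E14Rik overlaps Nlrc5 by 78. Zbtb22 shares 149 exon bases with Tapbp on the same strand. Whether reads were counted by strand is not given in the sources used here. Gm19412 was at most 4.02 CPM and Gm15821 at most 2.87 CPM in any library, and Zbtb22 between 25.8 and 45.0 CPM. Gm20496 was at most 0.536 CPM and 9330175E14Rik at most 6.88 CPM.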

How the data were processed

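RNA of 24 libraries was read with QuantSeq 3′ mRNA sequencing (75-base single reads). The submitters' processing notes name fastp, STAR and mm10, and the counting tool, annotation and strand setting are not given in the sources used here. The deposited values, which the authors named TPM, are CPM, since 100.0% of them came out as whole reads within 0.05 reads. The 1 row without an identifier in each file was left out. Replicates were compared as deposited, 0 columns of per-sample values were left unused, and no column of the authors' own comparisons was used.

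Groups came from the sample labels. A gene entered the test if 3 or more of the 12 libraries held 1 CPM or more, and limma 3.58.1 was run on log2(CPM + 1) values (trended variance, all 12 libraries of an experiment in 1 fit, Benjamini-Hochberg adjustment) in R 4.3.3, after a check on simulated data. A fold change on this scale understates the change of low genes. Alternatives were other pseudocounts and filters, median-of-ratios scaling, fits of only the groups compared, a replicate block, and every library left out in turn. Further ones were the stricter rule, and edgeR 4.0.16 (quasi-likelihood) and DESeq2 1.42.0 on the recovered reads. The members and gene lists were chosen with earlier results of these data known. Named genes are the 10 members, the targeted genes, the largest changes of each list, direct partners of members, and the 8 genes most like the members' mean. An exact permutation test of 3 against 3 libraries cannot go below 0.1 and was not used. Motifs were searched in RefSeq promoters of GRCm38.p6, and positions came from a GRCm38 annotation. The values of 1 listed gene are not reported here. Figures were drawn with matplotlib 3.10.9.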

Additional observations from a re-analysis of the deposited data

Results flagged for a closer look

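The effect of sgCbfb on Tapbp differed between Phase 1 cells and LPs, with an interaction of -0.87 on the log2 scale (adjusted p = 0.0495 by limma, Benjamini-Hochberg). This call lies at the edge of the threshold. It was lost in 10 of 12 fits that left out 1 library. It was also lost by limma with a pseudocount of 0.1 (adjusted p = 0.063) and without the filter (adjusted p = 0.0698). Tapbp was lower with sgCbfb in Phase 1 cells (-0.72, 3 of 3 libraries below all sgControl libraries), and in LPs the difference was 0.14 with overlapping groups. No explanation was tested.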

How the results depend on the processing

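The 10 genes were recomputed in 11 comparisons under each alternative. Of these single-gene results, 2261 kept their direction and side of the threshold, 89 no longer passed, 44 newly passed and 1 reversed. The reversed one was Tap2 between sgCbfb and sgControl Phase 1 cells on the log2 scale, at -0.92 without sgControl replicate 3, in a range of -0.92 to 0.64 over the fits that left out 1 library. The counts below are genes that passed and, apart from the stricter rule, have no share of all genes to stand against. With a pseudocount of 0.1, 0 were lower with stage in sgControl cells and 0 in the interaction, and with 5, 1 was lower with stage in sgCbfb cells. Without the filter on low values these were 0 (sgControl stage, lower), 0 (interaction, lower), 1 (sgCbfb of experiment 2, higher), 1 (sgCTCF, higher) and 0 (sgMed12, lower). With a mean over 10 CPM, 0 were lower with stage in sgControl cells. Fitting only the groups compared gave 1 lower with sgCbfb in LPs of experiment 1, 0 lower with stage in sgControl and 1 in sgCbfb cells, 1 lower with sgCbfb in experiment 2, 6 higher with sgCTCF, 0 lower with sgMed12 and 1 lower in sgCTCF against sgCbfb. EdgeR gave 1 lower with sgCbfb in LPs of both experiments and 1 lower in sgCTCF against sgCbfb, and DESeq2 gave 0 lower with stage in sgControl cells and 1 higher with sgCTCF. Under the stricter rule the counts were 0 lower with sgCbfb in Phase 1 cells, 1 higher with stage in sgControl cells, 1 higher with sgCbfb in experiment 2, 0 higher and 0 lower with sgCTCF, 0 lower with sgMed12, and 1 and 2 lower in sgMed12 against sgCbfb and sgCTCF. The cause of these changes was not tested, apart from the added thresholds of the stricter rule.

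Leaving out 1 library at a time gave, in experiment 1, 0 to 1 lower with sgCbfb in LPs, 0 to 1 higher and 1 to 3 lower with sgCbfb in Phase 1 cells, 2 to 4 higher and 0 to 2 lower with stage in sgControl cells, 0 to 1 lower with stage in sgCbfb cells and 0 to 1 lower in the interaction. In experiment 2 it gave 1 to 6 higher and 0 to 1 lower with sgCbfb, 1 to 3 higher and 0 to 1 lower with sgCTCF, 0 to 1 higher and 0 to 2 lower with sgMed12, 0 to 2 higher and 0 to 1 lower in sgCTCF against sgCbfb, 2 to 6 lower in sgMed12 against sgCbfb and 3 to 5 lower in sgMed12 against sgCTCF. The count of 4 higher genes with sgCbfb fell to 1 without sgCbfb replicate 1 or any 1 sgControl library.

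Deviations from the group mean correlated at -0.038 to 0.14 (median 0.041) between libraries that share a replicate number in experiment 1 and at -0.13 to 0.216 (median 0.074) in experiment 2, where 2 and 5 of 18 such pairs were over 0.1. Between libraries of different numbers the medians were -0.02 and -0.026, with 0 and 2 of 36 pairs over 0.1. A library correlated best with its own number in another group in 18 and 22 of 36 cases, so the numbers lean together without pairing every library, and the block was kept as an alternative. With the replicate number as a block, 3 genes were higher and 1 lower with sgCbfb in experiment 2, where H2-D1 was at an adjusted p of 0.0602 and Tap2 at 0.0392 by limma, and no other call changed. The shallower libraries of experiment 1 limit Nlrc5 most, at 1 to 17 reads each.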
